A study of Mus musculus with 9 samples.

Results

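The regions described here are the places of open chromatin that lie in the olfactory and vomeronasal receptor gene clusters. Peaks on chromosomes 1 to 19 of all 9 ATAC-seq libraries were merged where they overlapped or touched, and a merged region was a member when it overlapped the body or the 25 kb flanks of a gene whose symbol begins with Olfr, Vmn1r or Vmn2r. By this rule 681 of 132893 merged regions were members. They lay around 1960 annotated receptor genes and pseudogenes, of which 1399 were Olfr, 326 Vmn1r and 235 Vmn2r. The windows around these genes joined into 279 clusters that covered 53.4 Mb.

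ATAC-seq maps the places where a transposase can cut the DNA of a nucleus, and dense groups of cuts were called as peaks. The libraries came from C3H/10T1/2 (CCL-226) cells, a mouse line of mesenchymal progenitor cells. There were 3 libraries of the Atrx wild-type (WT) line and 3 of each Atrx knockout clone, B10 and G7. Each clone grew from 1 cell after CRISPR-Cas9 cutting with its own guide, the WT line had received the Cas9 vector with no guide, and no line stands for more than 1 clone. ATRX is a chromatin remodeller encoded on chromosome X. A peak list holds no measure of the ATRX protein, so loss of ATRX could not be checked in these files.

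Olfactory receptors (Olfr) are the odorant receptors of sensory neurons in the nose, and the vomeronasal receptors of types 1 and 2 (Vmn1r, Vmn2r) serve the vomeronasal organ, where they detect pheromones and related cues. A mature olfactory neuron expresses 1 receptor allele, and the other receptor genes in that cell are packed in heterochromatin. Outside these neurons the clusters are known as long, gene-dense and silent stretches of the genome. Expression was not measured in the files used here.

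Sequences that reach 100 bases to either side of the summit of the strongest peak are printed for members that carry the results below, from the plus strand of mm10. The first is at the start of Vmn1r40, the strongest member at a receptor start site that is not also at another gene's start, chr6:89706714-89706914. Capitals mark its match to the AP-1 motif (TGANTCA).
Vmn1r40: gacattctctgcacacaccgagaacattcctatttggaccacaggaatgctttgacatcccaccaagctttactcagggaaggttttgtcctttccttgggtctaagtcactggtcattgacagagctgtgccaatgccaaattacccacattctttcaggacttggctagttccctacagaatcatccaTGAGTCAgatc
The next is at the start of Olfr156, the strongest at an Olfr start site by the same rule, chr4:43824045-43824245, and it holds none of the 4 motifs searched.
Olfr156: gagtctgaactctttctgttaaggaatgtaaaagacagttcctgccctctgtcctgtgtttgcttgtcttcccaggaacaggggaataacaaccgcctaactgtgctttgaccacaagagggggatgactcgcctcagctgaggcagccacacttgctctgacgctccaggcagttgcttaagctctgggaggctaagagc

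The region first in order among those gained in both clones lay 13106 bases from Olfr221, and its sequence is chr14:52055692-52055892. It held 9 copies of CCCTAA, the unit of the telomere repeat, shown in capitals. This motif was chosen after the sequence had been seen.
Olfr221: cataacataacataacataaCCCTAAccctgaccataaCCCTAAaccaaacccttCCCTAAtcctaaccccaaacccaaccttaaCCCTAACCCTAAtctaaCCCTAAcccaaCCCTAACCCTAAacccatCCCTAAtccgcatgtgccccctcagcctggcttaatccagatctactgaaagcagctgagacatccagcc

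Among the members lost in both clones, 3 regions on chromosome 7 shared nearly the same sequence, near Vmn2r33 (chr7:7541573-7541773), Vmn2r-ps45 (chr7:8289108-8289307) and Vmn2r38 (chr7:9065427-9065627). Capitals mark bases that differ from the first of the 3.
Vmn2r33: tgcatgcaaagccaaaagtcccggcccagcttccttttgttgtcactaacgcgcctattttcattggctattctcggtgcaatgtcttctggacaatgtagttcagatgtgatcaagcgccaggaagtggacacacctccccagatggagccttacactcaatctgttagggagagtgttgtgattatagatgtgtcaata
Vmn2r-ps45: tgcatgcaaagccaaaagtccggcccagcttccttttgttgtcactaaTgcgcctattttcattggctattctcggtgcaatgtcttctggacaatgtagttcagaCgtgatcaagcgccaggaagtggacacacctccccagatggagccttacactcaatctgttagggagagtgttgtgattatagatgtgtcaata
Vmn2r38: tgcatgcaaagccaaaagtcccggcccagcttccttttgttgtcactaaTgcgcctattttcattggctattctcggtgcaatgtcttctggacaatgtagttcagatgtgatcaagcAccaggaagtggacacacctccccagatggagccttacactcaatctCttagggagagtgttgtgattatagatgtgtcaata
Each of the other two was 98.5% identical to the Vmn2r33 sequence, and the Vmn2r-ps45 copy also lacks 1 base of it.

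The libraries held 74643 to 86650 peaks on chromosomes 1 to 19, and the lists hold no read counts, so sequencing depth is unknown. Replicates of number 1 stood apart from replicates 2 and 3 in all 3 lines, and values within these sets are given beside the pooled ones. Start sites of mesenchymal genes were open as the label of the cells says: 11 of 12 had a peak within 1 kb in all 9 libraries, and the exception, Ly6a, had one in 7. No start site of 4 blood or 3 epithelial genes was open in all 9. For neuronal genes the count was 4 of 7, Omp among them, and a peak at a start site is no measure of expression.

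The receptor clusters were poor in open chromatin. Windows around receptor genes held 12.8 merged regions per Mb, against 54.9 per Mb over the rest of chromosomes 1 to 19. Within single libraries the windows held 6.67 to 7.81 regions per Mb and the rest 30.4 to 35.1 per Mb, so that the rest was 4.11 to 4.77 times as dense. The log2 ratio of window to rest averaged -2.16 over the 9 libraries. It was below 0 in 9 of 9 (exact sign-flip test, p = 0.00391, the smallest this test can give). The libraries share loci and a parent line, so this p measures only how far they agree. Short reads are harder to place in these clusters. Of 75-base tiles cut from the reference, 16.9% had no unique best place in the windows, against 5.60% elsewhere, and 80.0% against 92.7% were placed once. The tiles were single, held the reference sequence and were placed with another aligner than the paired reads of the study. They are thus no measure of how those reads were placed. What part this difference in placement had in the density was not tested.

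Density rose with distance from the receptor genes. It was 9.54 regions per Mb inside gene bodies, 9.30 in the first 5 kb, 10.8 from 5 to 10 kb, 21.4 from 10 to 25 kb, 38.0 from 25 to 50 kb and 52.0 from 50 to 100 kb. Beyond 100 kb it was 55.0 per Mb. Each library showed low values out to 10 kb and values near the rest of the genome beyond 50 kb. The low density thus covered the genes and the spaces between close neighbours. Regions with a peak in all 9 libraries rose from 1.99 per Mb in bodies to 21.9 per Mb at 50 to 100 kb and stood at 19.2 per Mb beyond 100 kb.

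**Figure D1:**
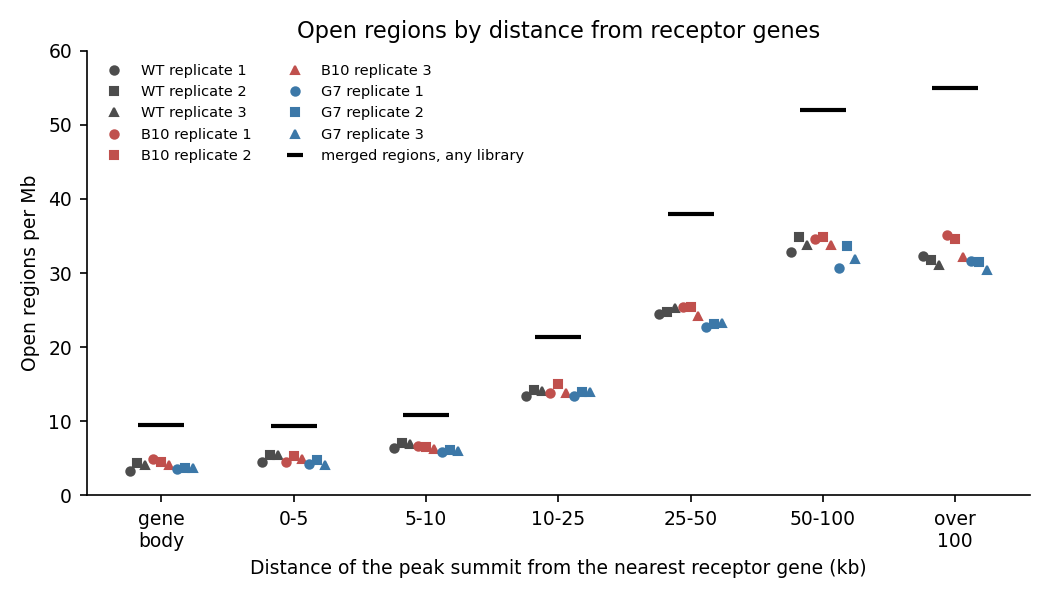
Open regions per Mb against the distance of the peak summit from the nearest receptor gene body (kb). Points are single libraries (WT grey, B10 red, G7 blue, with circles, squares and triangles for replicates 1, 2 and 3), and black bars are merged regions of any library, which climb from 9.54 per Mb in gene bodies to 55.0 per Mb beyond 100 kb.

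Large clusters held fewer open regions for their length. The 45 clusters of 10 or more genes held 7.74 regions per Mb, the 121 clusters of 2 to 9 genes 17.6 per Mb, and the 113 single receptor genes 19.6 per Mb. Members at another gene's start were 25 of 214, 43 of 330 and 28 of 137 in the same order. Windows around single genes also hold more flank per gene, and cluster size was not separated from either. No member lay in 126 of the 279 clusters. The chromosome 2 cluster from Olfr1127-ps1 to Olfr1270, the largest with 143 receptor genes over 2.68 Mb, held 3 members. Of all receptor genes, 1478 had no open region within 25 kb in any library, and 482 had at least 1.

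Receptor start sites were seldom open. An open region lay within 1 kb of the start site of 67 of 1960 receptor genes (3.42%), which were 47 Olfr, 16 Vmn1r and 4 Vmn2r genes. For other protein-coding genes the count was 13681 of 19350 (70.7%). The sets differ in kind, since only 1457 of the 1960 receptor genes were annotated as protein-coding. Peaks inside receptor gene bodies also ranked lower than peaks elsewhere, those at start sites of other genes included. Peak strength is given as a rank, which orders the peaks of one library by their −log10 p on a percentile scale where 100 is the strongest. The median rank of regions in receptor bodies was 35.8 to 45.1 over the 9 libraries against 50.3 to 50.7 for all other regions. The mean difference was -9.65 (exact sign-flip test, p = 0.00391, the smallest this test can give, lower in 9 of 9 libraries). Start sites of other genes held 13.6% of regions outside the windows and 5.41% of members in bodies. Regions outside the windows at no such start had median ranks of 43.8 to 44.8. Bodies ranked below these in each library but B10 replicate 2 (45.1 against 44.8), a comparison that was not tested. Over all members, flanks included, the median rank was 47.5 to 55.4, and the mean difference from other regions was 0.693 ± 2.53 (SD, n = 9, exact sign-flip test, p = 0.43). With 50 kb flanks the members ranked higher than other regions by 2.94 (exact sign-flip test, p = 0.0117), so the sign of this comparison turned on how much flank was counted. The deposited fold enrichment is relative to a background that the sources used here do not define, which may be an input library or the local signal. Its median was higher for members in 9 of 9 libraries, at 8.13 to 9.02 against 7.69 to 8.69 (mean difference 0.501 ± 0.301, SD, n = 9, exact sign-flip test, p = 0.00391).

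Members were found in as many libraries as other regions were. A peak in all 9 libraries was found for 232 members (34.1%, against 35.0% of other regions), in 2 to 8 libraries for 294 (43.2% against 42.8%) and in 1 library alone for 155 (22.8% against 22.3%). Of 69 members at receptor start sites that lay at no other gene's start, 15 were open in all 9 libraries and 25 in a single one. Of the 148 members inside receptor bodies, 34 were open in all 9. Members were slightly narrower than other regions (median 482 against 518 bp) and lower in GC (median 46.8% against 48.8%). More of them lay mostly in masked repeats (75 members, 11% of them, against 6.04%), and 40 (5.87%) had a near-identical copy elsewhere in the genome against 0.861% of other regions.

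Motifs of transcription factors were sought within 100 bp of the summit as exact matches on either strand. AP-1 (TGANTCA), a site of Fos and Jun dimers, was found in 126 members (18.5%) and in 20.2% of all regions. EBF (CCCNNGGG) and LHX (TAATTA), sites of the factor families that bind receptor enhancers in olfactory neurons, were found in 6.31% and 3.23% of members and in 7.06% and 2.84% of all regions. The CTCF motif was found in 4.55% and 4.03%. At receptor start sites 22 of 69 members (31.9%) held AP-1, while 4 held EBF and 1 held LHX. The Vmn1r40 sequence above is one of those 22. These matches are descriptions of letters and not sites of binding.

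Some members lay at the start sites of other genes. Of the 681 members, 96 (14.1%, against 13.6% of other regions) lay within 1 kb of a start site of 87 other protein-coding genes, a share near that elsewhere. Of these 96, 72 (75%) were open in all 9 libraries, against 68.7% of other regions at start sites. Their median rank was 82.5, against 20.9 for members at receptor start sites. Zinc finger genes (Zfp, Zkscan or Zscan) accounted for 17 of the 87 genes and 19 members, Hist1 histone genes for 9 genes and 6 members, and Trim genes for 3 and 3. The strongest of these members lay at the start of Ppp2r1a, a scaffold subunit of protein phosphatase 2A, with ranks of 99.8, 99.8 and 99.7 in WT, 99.9 in each B10 library and 99.8, 99.6 and 99.7 in G7. Mad2l1, a spindle checkpoint gene 16203 bases from Vmn1r32, ranked 98.9, 99 and 98.9 in WT, 99.7, 99.8 and 99.7 in B10 and 99.7, 99.2 and 98.8 in G7. Start sites of Spryd7, Nt5c3 and Gm12258 followed, and the region at Nt5c3, a nucleotidase gene, also covered the start of Vmn1r4. Pdgfra, the receptor gene that marks mesenchymal cells, has its start inside the window of the pseudogene Olfr1401-ps1. Of the 4 members there, 3 had a peak in all 9 libraries.

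Other strong members lay at no annotated start of another gene. A region 10101 bases from Olfr279 (chr15:98512739-98513441) ranked 98.1, 94.1 and 94.3 in WT, 99.7, 99.3 and 99 in B10 and 98.5, 95.8 and 96.6 in G7. All 3 B10 values exceeded all WT values there. A region 4172 bases from Olfr288 on the same chromosome (chr15:98180978-98181840) ranked 98.3, 99.4 and 99.1 in WT, 91.8, 93.9 and 93.7 in B10 and 97.7, 97.7 and 97.2 in G7, and both clones lay below WT. Inside the body of Vmn1r60 (chr7:5540660-5541432) the ranks were 83.9, 93.0 and 86.8 in WT, 90.1, 96.9 and 95.3 in B10 and 85.9, 97.4 and 94.3 in G7. The lines overlapped, and within each replicate number both clones lay above WT.

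Among receptor start sites away from the starts of other genes, Vmn1r40 was the strongest. Its region (chr6:89706435-89707228) ranked 73.7, 85.7 and 82.3 in WT, 85.3, 93.2 and 91.4 in B10 and 81.1, 89.7 and 86.6 in G7. The lines overlapped there, and within each replicate number both clones lay above WT. Olfr156 (chr4:43823722-43824596) ranked 78.5, 70.1 and 76.3 in WT, 83.6, 75.8 and 75 in B10 and 77.4, 80.1 and 78.9 in G7, also with overlap. Olfr433, Olfr279, Olfr1542-ps1 and Vmn1r50 were open in all 9 libraries too, at ranks from 32.6 to 77.3. Olfr433 ranked 75, 75 and 77.3 in WT, 65.5, 75.8 and 73.4 in B10 and 61, 71.6 and 72.5 in G7, so that G7 lay below all WT values and B10 overlapped them. At the other 3 both clones overlapped WT.

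The remaining 4 of the 10 highest receptor start sites varied more between lines. Olfr159 (chr4:43771411-43772018) ranked 61.4, 23.7 and 23.9 in WT, 82.2, 71.7 and 62.7 in B10 and 82.6, 65.3 and 58.4 in G7. B10 lay above all WT values and G7 overlapped them through WT replicate 1, and the clones were higher within each replicate number. Vmn1r183 (chr7:24052576-24053477) ranked 61.5, 24.9 and 38.9 in WT, 75.4, 75.1 and 74.5 in B10 and 49.0, 59.2 and 47.9 in G7. B10 stood above both other lines there. Olfr373, which ranked 55.3, 45.5 and 46.9 in WT, stood at 32.5, 46.4 and 29.6 in B10 and 32.2, 43.8 and 30.5 in G7, and G7 lay below all WT values. The pseudogene Olfr647-ps1 (chr7:104167089-104168081) ranked 35.1, 70.2 and 57.0 in WT, 22.4, 20 and 11.9 in B10 and 43.8, 73.4 and 61.3 in G7, so that only B10 was below WT. Single members were not tested one by one, since 3 libraries against 3 cannot give p below 0.1.

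**Figure D2:**
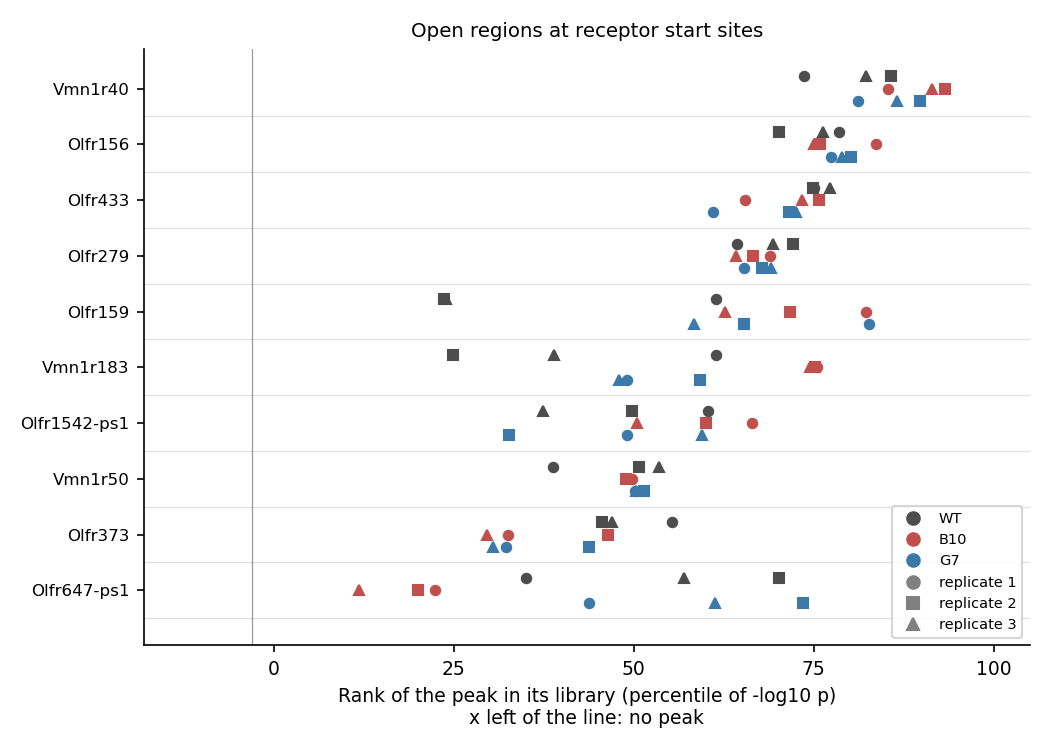
Rank of the peak in each library (0 to 100, percentile of −log10 p) at the 10 receptor start sites highest in number of libraries and median rank. Colours are lines and shapes are replicates, and Olfr159, Vmn1r183 and Olfr647-ps1 show the widest spread, from 23.7 to 82.6, 24.9 to 75.4 and 11.9 to 73.4.

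The number of open members per line was compared next. A peak was found in 364, 411 and 404 members in WT, in 393, 417 and 387 in B10 and in 356, 377 and 368 in G7. The means were 393 ± 25.4 in WT, 399 ± 15.9 in B10 and 367 ± 10.5 in G7 (SD, n = 3). B10 differed from WT by 6 (exact permutation test, p = 0.8, adjusted p = 0.8), by 29 in replicate 1 and by -5.5 in replicates 2 and 3. G7 differed from WT by -26 (exact permutation test, p = 0.3, adjusted p = 0.45), by -8 in replicate 1 and by -35 in replicates 2 and 3. B10 exceeded G7 by 32 with no overlap (exact permutation test, p = 0.1, the smallest that 3 against 3 allows, adjusted p = 0.3). B10 replicates 1 and 2 had the longest peak lists of the 9, and with equal numbers of peaks per library the difference between the clones was -0.667.

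As a share of all regions with a peak, members made up 0.466, 0.534 and 0.537% in WT, 0.463, 0.499 and 0.497% in B10 and 0.465, 0.494 and 0.5% in G7. Replicate 1 was lowest in each line, and in it the clones differed from WT by -0.00358 (B10) and -0.000731 (G7) percentage points. In replicates 2 and 3 the differences were -0.0374 (B10) and -0.0381 (G7) percentage points. Pooled, B10 minus WT was -0.0261 and G7 minus WT -0.0257 percentage points (exact permutation tests, p = 0.3 for each, adjusted p = 0.45). Neither difference passed the threshold, and the size moved with the replicate set.

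**Figure D3:**
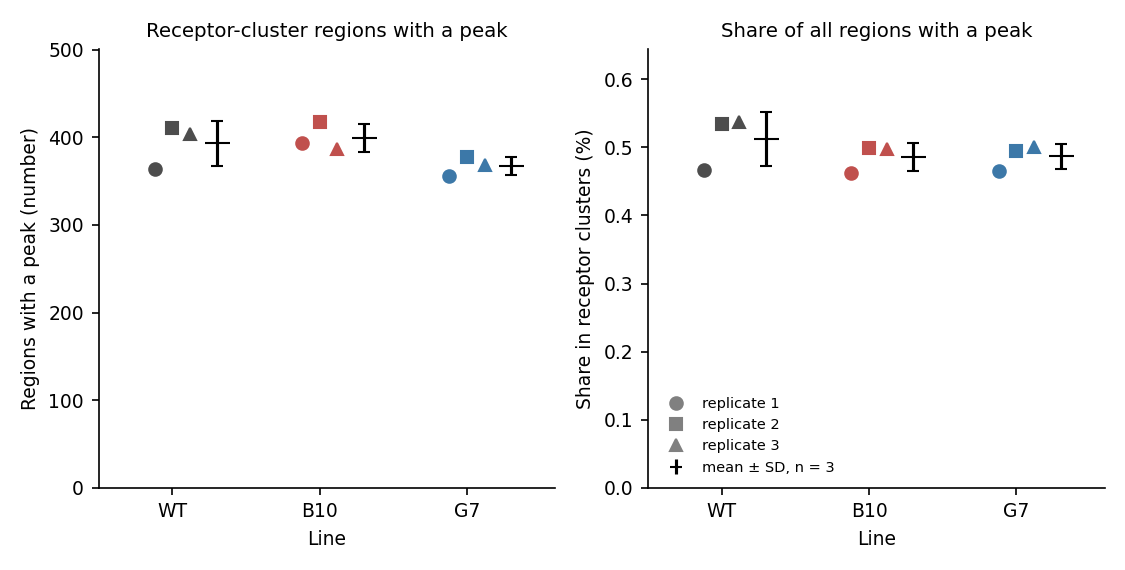
Left, number of receptor-cluster regions with a peak in each library. Right, the same as a percentage of all regions with a peak, with points for libraries (shape gives the replicate) and bars for mean ± SD (n = 3). Libraries of replicate 1 lie lowest in share in each line, at 0.466, 0.463 and 0.465%.

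Members were also counted by the family of the nearest receptor gene. Members nearest a Vmn1r gene had a peak 56, 55 and 56 times in WT, 63, 66 and 65 times in B10 and 58, 62 and 59 times in G7, with no overlap between any pair of lines (means 55.7 ± 0.577, 64.7 ± 1.53 and 59.7 ± 2.08, SD, n = 3, exact permutation tests, p = 0.1 for each, the smallest possible, adjusted p = 0.1). B10 minus WT was 7 in replicate 1 and 10 in replicates 2 and 3, and G7 minus WT was 2 and 5. With the replicate number as a block, each pair of lines gave p = 0.25 (exact sign-flip test), the smallest 3 pairs allow. As a share of all regions with a peak, Vmn1r members held 0.0725 ± 0.00162% in WT, 0.0789 ± 0.00467% in B10 and 0.0791 ± 0.00289% in G7, and B10 then overlapped WT (exact permutation test, p = 0.2, adjusted p = 0.3), while G7 did not (p = 0.1, adjusted p = 0.3 in the same exact test). Olfr members had a peak 255, 300 and 300 times in WT, 274, 292 and 272 times in B10 and 248, 267 and 258 times in G7, where both clones overlapped WT because WT replicate 1 was low. Vmn2r members had a peak 53, 56 and 48 times in WT, 56, 59 and 50 in B10 and 50, 48 and 51 in G7, with overlap of all lines. The families were not tested against each other.

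Counts within single clusters are given as a description with no test, since a region became a member through a peak in any library, and a line with peaks of its own thereby added members to a cluster. The chromosome 17 cluster from Olfr90 to Olfr761, with 47 Olfr genes next to genes of the major histocompatibility complex, held the most members, 22. Its members had a peak 6, 8 and 7 times in WT, 16, 14 and 14 times in B10 and 5, 8 and 5 times in G7. The B10 counts lay above those of both other lines (14.7 ± 1.15 against 7 ± 1 and 6 ± 1.73, SD, n = 3). In this cluster 6 of the 22 members had a peak in at least 2 B10 libraries and in no WT library, and these members also raised its place in the order of clusters. They included a region 11691 bases from Olfr126 with B10 ranks of 65.8, 77.9 and 76.7 and a region at the start of Olfr761 with 61.8, 55.6 and 51.6. Neither had a peak in any WT or G7 library. A region 1253 bases from Olfr96 ranked 27.7, 51.2 and 43.3 in B10 and had a single peak elsewhere, at rank 3.14 in WT replicate 2. Over the whole of chromosome 17, 8.73% of regions were gained in B10. Within this cluster the start of H2-M3, a class Ib histocompatibility gene, was open in all 9 libraries at ranks from 73.8 to 83.5. No region of the 22 had a near-identical copy. The pattern went on in the clusters next to it. From Olfr129 to Olfr135 members had a peak 3, 2 and 2 times in B10 and 0 times in each WT and G7 library. From Olfr138 to Olfr136 the only member had a peak in each B10 library and in none of WT or G7. Of the 56 members on chromosome 17, 12 were gained in B10, with 6, 3 and 1 in these clusters in order.

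In the chromosome 2 cluster of 143 Olfr genes the peaks were in WT. Its 3 members had a peak 2, 3 and 2 times in WT and none in any library of either clone, so all 3 were members through WT peaks alone. The region 11550 bases from Olfr1188 (chr2:88572366-88573961) ranked 58.0, 70.7 and 65.1 in WT, and the region in the body of Olfr1226 ranked 28.7, 35.1 and 26.9. The third, at the start of Olfr1263, had a single peak, at rank 12 in WT replicate 2. Over chromosome 2 as a whole, 4.16% of regions were lost in both clones.

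Of the other clusters, the Vmn1r cluster on chromosome 6 (Vmn1r-ps25 to Vmn1r54) had 10 members with a peak in every WT library, 12, 13 and 13 in B10 and 11, 12 and 12 in G7. In the chromosome 10 cluster from Olfr9 to Olfr827 the counts were 13, 13 and 14 in WT, 17, 15 and 15 in B10 and 16, 15 and 15 in G7. The counts of both clones lay above those of WT in both clusters. The Vmn1r cluster on chromosome 13 (Vmn1r-ps92 to Vmn1r-ps110), the richest in Vmn1r genes with 36 of them, had 5 in each WT library and 4 in each library of the clones. In the chromosome 11 cluster from Olfr56 to Olfr1394 the counts were 13, 14 and 13 in WT, 16, 16 and 17 in B10 and 14, 16 and 15 in G7, and 6 of its 21 members had a near-identical copy. The clusters from Olfr1373 to Olfr1371, from Olfr282 to Olfr278-ps1 and from Vmn2r3 to Vmn2r-ps12 overlapped between each clone and WT in every pair compared.

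**Figure D4:**
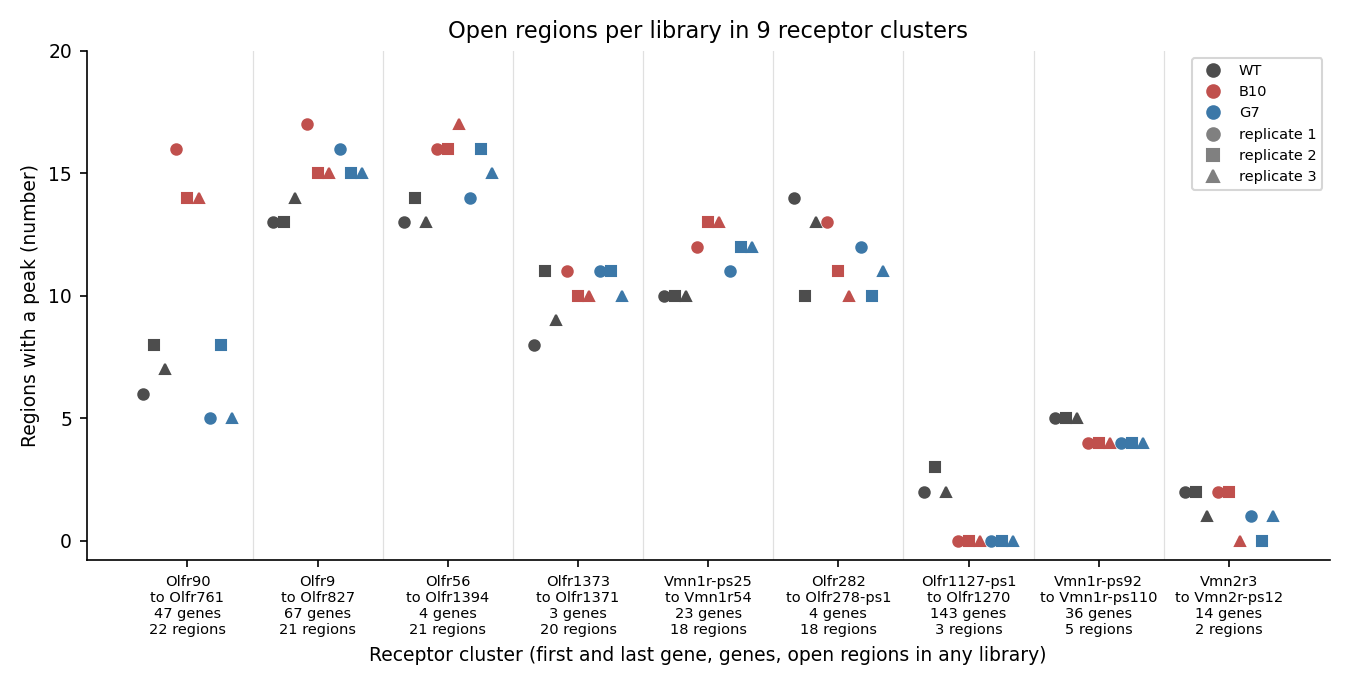
Number of members with a peak in each library (y axis) for the clusters with the most members and the largest cluster of each family, with the first and last gene, the number of receptor genes and the number of members under each. The B10 libraries stand at 14 to 16 in the Olfr90 to Olfr761 cluster against 5 to 8 in WT and G7, and the clones stand at 0 in the Olfr1127-ps1 to Olfr1270 cluster.

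Gained members were those with a peak in 2 or 3 libraries of a clone and in none of WT, and lost members those with the opposite pattern. In B10, 54 members (7.93%) were gained against 7.43% of all regions, and 54 (7.93%) were lost against 5.43%. In G7, 33 (4.85%) were gained against 4.01%, and 54 (7.93%) were lost against 5.32%. Gained in both clones were 17 (2.50%) against 2.1% of all regions, and lost in both were 39 (5.73%) against 3.13%. The shares gained lay near the background, and the share lost in both was above it. The 3 WT libraries served for both clones, so the calls in B10 and G7 are not independent. A peak had been found in all 6 knockout libraries for 5 of the 17 and in all 3 WT libraries for 18 of the 39.

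These counts rested on single libraries to a degree. Without WT replicate 2 the members lost in both clones were 20 (3.04%, against 1.56% of all regions) and without WT replicate 3 they were 22 (3.35% against 1.62%). Those lost in B10 were then 27 (4.11% against 2.84%) and 29 (4.41% against 2.95%). Those lost in G7 were 27 (4.11% against 2.80%) and 30 (4.57% against 2.91%). Members gained in both were 11 (1.64%, against 1.40% of all regions) without G7 replicate 1, 10 (1.49% against 1.42%) without G7 replicate 2 and 10 (1.49% against 1.48%) without G7 replicate 3. Members gained in G7 were 20 (2.98% against 2.35%) without its replicate 2. Without its replicate 3 they were 14 (2.08% against 2.44%), which put the share of members below that of all regions. Members gained in B10 were 33 (5.03% against 4.99%) without its replicate 1 and 34 (5.14% against 4.44%) without its replicate 2. With replicate 1 of all lines left out, 34 members (5.43%) were lost in both against 3.10% of all regions, and 14 (2.24%) were gained in both against 2.53%.

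By family, lost in both were 30 of 482 members nearest an Olfr gene, 4 of 98 nearest a Vmn1r gene and 5 of 101 nearest a Vmn2r gene. Gained in both were 7 of the 482, 6 of the 98 and 4 of the 101. Over all regions 3.13% were lost in both and 2.1% gained in both. For gains, the Olfr share lay below that of all regions and the Vmn1r and Vmn2r shares above it, on few members and untested. By chromosome, 12 of the 39 lost members lay among the 90 members on chromosome 7 and 8 among the 95 on chromosome 11, and of all regions on these chromosomes, picked after the counts were seen, 3.10% and 3.26% were lost in both. Of the 17 gained in both, 3 lay among the 6 members on chromosome 18, where 3.08% of all regions were gained in both.

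The strongest members lost in both clones were the copies near Vmn2r33 and Vmn2r-ps45 printed above. The first (chr7:7541057-7542115) ranked 80.2, 76.8 and 77.4 in the WT libraries and the second (chr7:8288517-8289538), 14686 bases from Vmn2r-ps45, ranked 75.7, 69.4 and 69.8. The copy near Vmn2r38 (chr7:9065163-9065805) ranked 58.3, 45.5 and 51.5. All 3 were without a peak in all 6 knockout libraries. Reads from one copy can be placed on another where they do not cover a differing base, so the 3 regions are not independent. Of the 39 members lost in both, 5 had such a copy, and without regions that have copies 34 (5.30%) were lost in both against 3.10% of all regions.

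Members without copies lost from both clones included a region 6566 bases from the pseudogene Olfr1421-ps1 (chr19:12013333-12013608), with WT ranks of 47.6, 49.6 and 61.6. A region 7258 bases from Olfr495 (chr7:108404772-108405716) ranked 37.0, 44.4 and 38.9 and one in the body of Olfr462 (chr11:87884983-87885410) ranked 36.4, 34.4 and 34.9. A region 1538 bases from Vmn1r-ps107 ranked 37.0, 36.6 and 28.8, and it is the member of the chromosome 13 Vmn1r cluster that the clones lacked. The regions near Olfr495, Olfr462 and Vmn1r-ps107 thus ranked in the weaker part of each WT list.

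The first member gained in both clones was the repeat-rich region near Olfr221 (chr14:52055566-52055820), which ranked 32.5, 42.3 and 35.6 in B10 and 50.2, 55.1 and 51.2 in G7. In all regions of the series, 5 held 6 or more matches to CCCTAA or TTAGGG within 100 bases of the summit, and this was the only member among them. Of these 5, 2 were gained in both clones and none was lost in both. The other 3 had a peak in 1 library of G7 for 2 of them and in 4 libraries of all lines for the last. One match or more was found in 9.10% of members and 7.09% of all regions, so single copies are common. The set of 5 is too small for a comparison.

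The region 20648 bases from Vmn2r-ps2 (chr2:39295519-39296125) had the highest B10 ranks of the 17, at 83.6, 81.8 and 80.5, and ranked 56.2, 37.8 and 24.1 in G7. A region 3360 bases from Olfr812 ranked 46.9, 42.3 and 42.4 in B10 and 23.9, 14.0 and 11.5 in G7. Near Olfr1370 the ranks were 22.4, 52.7 and 53.8 in B10 and 6.10, 40.9 and 41.0 in G7, low in replicate 1 of both. Near Vmn1r238 on chromosome 18 all 6 ranks were low, from 3.43 to 14.7. At the start of the pseudogene Vmn1r-ps135 a peak was found in all B10 libraries (43.9, 45.1 and 51.6) and in G7 replicates 2 and 3 (30.7 and 21.8). A region at a start of Skp1a, which encodes a subunit of SCF ubiquitin ligases, ranked 61.5, 48.6 and 34.7 in B10 and 29.2 and 10.1 in G7 replicates 1 and 2.

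**Figure D5:**
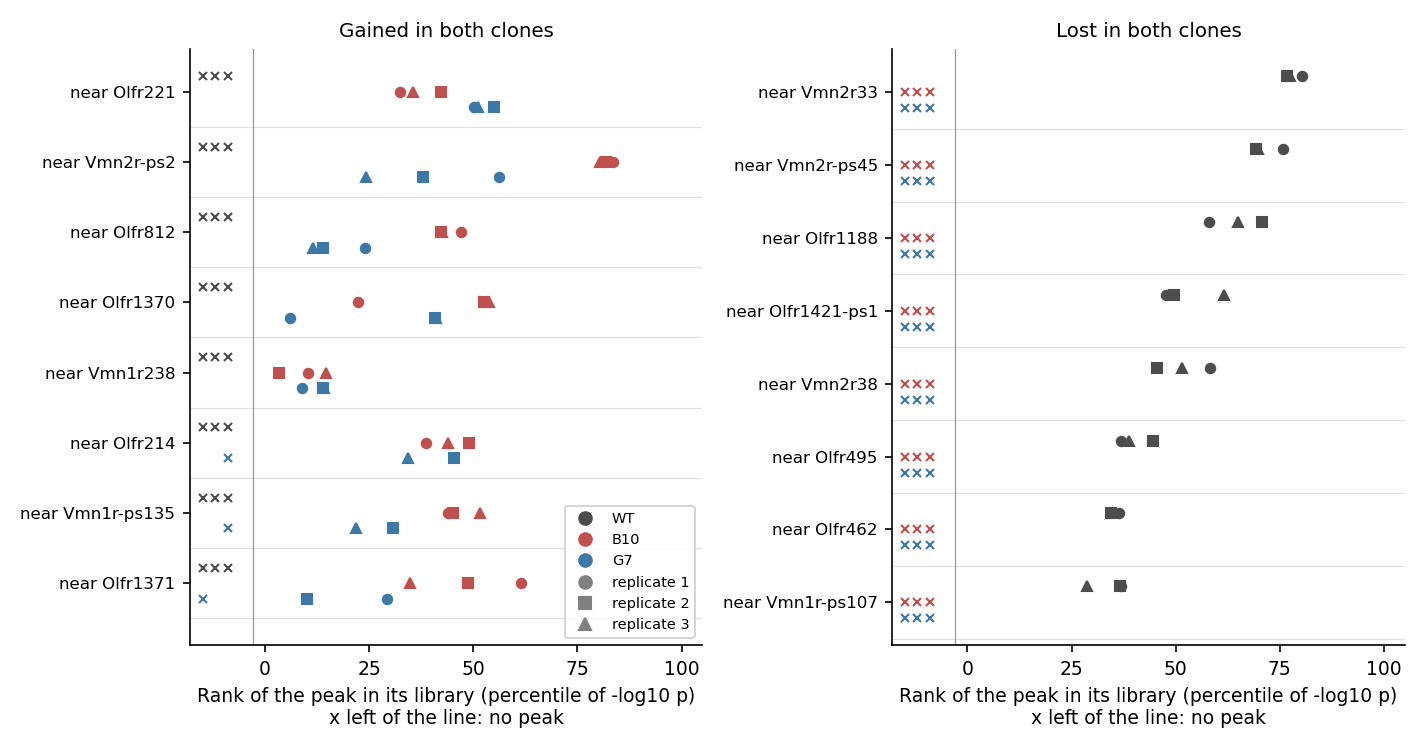
Ranks in each library of the 8 first members gained in both clones (left) and lost in both (right), named by the nearest receptor gene. Colours are lines, shapes are replicates and a cross left of the vertical line is a library without a peak. WT ranks of the lost members run from 28.8 to 80.2.

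Some members differed in a single clone. Lost in B10 alone was the start site of Tcaf1, a regulator of the TRPM8 channel near Olfr454-ps1 (chr6:42709569-42710391), which ranked 76.8, 74.0 and 72.8 in WT and 74.7, 72.5 and 78.3 in G7 with no peak in B10. A region 13896 bases from Olfr750 ranked 57.5, 43.1 and 43.5 in WT and 35.9, 36.1 and 30.5 in G7 and was absent from B10. Gained in B10 alone, besides the chromosome 17 regions, were 2 regions near Vmn2r19 on chromosome 6 with B10 ranks of 61.8, 58.3 and 53.8 and of 51.1, 51.2 and 59.7. The first of them had 1 peak in G7, at rank 19.2. Gained in G7 alone was a region in the body of Olfr157 with ranks of 33.5, 34.4 and 31.8. Lost in G7 alone was a region at a start of Slco2b1, an organic anion transporter gene near Olfr520, with WT ranks of 47.9, 34.4 and 43.7 and B10 ranks of 12.4, 26.4 and 6.22.

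Strength was compared where all libraries of a pair had a peak. Of 247 members, 56 (22.7%) had B10 ranks all above WT and 41 (16.6%) all below, against 20.4% and 13.6% of all regions. For G7, 34 of 247 (13.8%) lay above and 39 (15.8%) below, against 13.9% and 15.6%. Both clones lay above WT for 19 of 232 members (8.19%, against 8.56%) and below for 20 (8.62%, against 7.02%). The member shares lay within a few points of the shares over all regions.

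Of those above WT in both clones, the region 10142 bases from Olfr1393 (chr11:49267278-49268161) had the widest gap, with 35.8, 13.2 and 17.3 in WT, 63.3, 62.0 and 62.4 in B10 and 48.9, 44.8 and 46.4 in G7. A region near Vmn1r-ps3 on chromosome 4 ranked 43.8, 42.1 and 30.7 in WT, 65.8, 71.8 and 72.6 in B10 and 72.0, 70.5 and 66.2 in G7. Below WT in both, the region 23958 bases from Vmn2r97 (chr17:18888960-18890341) ranked 51.6, 61.0 and 50.6 in WT, 13.4, 33.6 and 25.1 in B10 and 11.4, 24.1 and 28.5 in G7. A region 10826 bases from Olfr1398-ps1 on chromosome 3 ranked 62.9, 77.5 and 77.4 in WT, 48.1, 59.6 and 50.6 in B10 and 50.7, 60.1 and 55.5 in G7.

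Genes with which receptor genes work were read from a list of 24 olfactory and vomeronasal neuron genes. Start sites of 13 were open in all 9 libraries, 5 in some and 6 in none. Open in all 9 were the transcription factor genes Lhx2, Ebf1, Ebf2, Ebf3, Emx2 and Atf5, the LHX2 cofactor gene Ldb1, the heterochromatin genes Cbx5 and Suv39h2, the demethylase gene Kdm1a, the G protein genes Gnao1 and Gnai2, and Omp. Without a peak in all 9 were Gnal and Cnga4 of the odorant signalling cascade, the receptor transporter gene Rtp1, Stoml3, the vomeronasal channel gene Trpc2 and Ebf4. Open in some were Cngb1 (8 libraries), Gng13 (5), Ano2 (4), Adcy3 (1) and Rtp2 (1). Other chemoreceptor families had few open start sites. No start site of 16 Taar genes, which encode trace amine receptors, or 8 Fpr genes was open in any library, and 1 of 40 Tas2r and 1 of 3 Tas1r taste receptor genes were open in all 9. Of 19 Ms4a genes, 2 were open in some libraries and 17 in none.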

How the data were processed

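ATAC-seq peak lists of 9 libraries were used, 3 each of WT, B10 and G7, grouped by their own labels. Per the study's methods, the authors aligned paired 75-base reads to mm10 with Rsubread and called peaks per replicate with MACS2 in BAMPE mode, whose version is not given in the sources used here. The deposited lists hold, for each peak, a fold enrichment (a ratio to a background, an input or the local signal, that the sources used here do not define), −log10 p-value, −log10 q-value, summit position and a display score, which was not used. The lowest deposited −log10 q-value was 1.30 to 1.31 in each list. No read counts are given, so depth is unknown, no interval on depth was computed, and a missing peak may lie just under the threshold.

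Regions were merged and intersected with GENCODE M21 gene models in Python 3.11.15 (numpy 2.4.6, pandas 2.3.3). Sequences came from the GRCm38 reference (pysam 0.24.0), the assembly of mm10. Copies were aligned with minimap2 2.31-r1302 (at least 190 aligned bases and 95% identity to the sequence within 100 bases of a summit), as were 75-base tiles of the reference. Densities divide by chromosome length with gaps included. The statistical functions were checked on small sets of numbers with known answers. The gained call was checked on randomly drawn presence values against the same rule. For differences between lines, two-sided exact permutation tests used the library as the unit (20 assignments, smallest p 0.1), adjusted by the Benjamini-Hochberg method over the 3 contrasts of a measure. Members were compared with other regions by exact two-sided sign-flip tests over 9 libraries (512 flips). These libraries share loci and cells, so they are not independent units in those tests. The tests of density, of fold enrichment, of counts and shares by receptor family and of counts in receptor bodies were not among the comparisons planned. Nothing says that libraries of a line came from separate cultures, so p-values measure the spread between these libraries, which may be technical.

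The members, gene lists and tests were chosen with earlier results of these data known. Named members followed a rule: clusters with most members and the largest of each family, receptor start sites and other members by number of libraries and median rank, gained and lost members by the number of libraries with a peak and then the lowest rank, and members whose ranks did not overlap by size. The repeat motif, the copies, the remaining chromosome 17 and chromosome 2 members and the neighbouring chromosome 17 clusters were described after their values had been seen. Deviations from line means correlated at 0.315 to 0.665 between libraries of the same replicate number and at -0.561 to 0.312 between different numbers (ranks of regions open in all 9). Such deviations cancel within a line, which lowers the values between different numbers. Replicate 1 gave 0.580 to 0.665 between lines, while replicates 2 and 3 of different lines gave 0.211 to 0.312. The numbers thus pair the libraries most clearly for replicate 1. Chromosome X, with 10 receptor genes, was left out by the rule.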

Additional observations from a re-analysis of the deposited data

Results flagged for a closer look

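Every B10 library lay above the WT mean and every G7 library below it in the number of members inside receptor gene bodies. A peak was found 54, 70 and 66 times in WT, 78, 73 and 66 times in B10 and 58, 60 and 60 times in G7, so that B10 minus WT was 9 and G7 minus WT was -4, a difference of 13 between the clones. Between the clones directly there was no overlap (exact permutation test, p = 0.1, the smallest possible, adjusted p = 0.3). In replicate 1, B10 minus WT was 24 and G7 minus WT 4, against 1.5 and -8 in replicates 2 and 3. The rank of the region at the start of Ppp2r1a, near Vmn1r-ps144, met the same rule. B10 lay above and G7 below the WT mean at 0.137 and -0.0677 from it, and the clones differed by 0.204. These shifts are small, since all ranks there lay from 99.6 to 99.9, at the top of the scale, and G7 overlapped WT. Whether the movements of the clones differ was not tested for either beyond the values given. Groups of 3 libraries were not tested for single outlying libraries.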

How the results depend on the processing

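The log2 density of open regions in the receptor windows against the rest stayed below 0 and past the threshold under all 16 alternatives, from -2.84 to -1.71. With gene bodies alone (0 kb flanks), there were 148 members. Those gained in B10 were 17, lost in B10 13, gained in G7 8, lost in G7 15, gained in both 4 and lost in both 12, by construction from fewer members. The shares of all regions stayed at 7.43, 5.43, 4.01, 5.32, 2.1 and 3.13%, in the same order. The median rank of members against other regions changed sign at 0 kb (-9.65), at −log10 q of at least 5 (-0.0311), without members near other start sites (-0.0293) and without replicate 1 (-0.604), passed the threshold at 50 kb (2.94), and ran from 0.197 to 1.17 with single libraries left out. The members with a peak in B10 minus WT changed sign at −log10 q of at least 5 (-1.33), with equal peak numbers (-21), with protein-coding receptor genes only (-0.333) and without replicate 1 (-5.5), and ran from -8.5 to 14.8 with single libraries left out. B10 minus G7 became -0.667 with equal peak numbers. The share in B10 minus WT was 0.00538 percentage points at 0 kb, and in B10 minus G7 it was 0.00929 at 0 kb, 0.00133 with equal peaks, 0.00269 without other start sites, 0.00624 with protein-coding genes only, 0.000409 without replicate 1 and -0.0111 to 0.0112 with single libraries left out. Members gained in both were 10 (1.78%, against 2.11% of all regions) at −log10 q of at least 5, which put their share below that of all regions. With protein-coding genes only they were 11, and those gained in G7 were 19. The shares of all regions stayed at 2.1% and 4.01% there, and no share of members was computed. With single libraries left out, members gained in B10 ran from 33 to 68, lost in B10 27 to 71, gained in G7 14 to 43, lost in G7 27 to 69, gained in both 10 to 25 and lost in both 20 to 46. Without WT replicate 1 the 68 gained in B10 were 10.1% against 11.5% of all regions, and the 25 gained in both 3.71% against 4.21%. The 43 gained in G7 (without WT replicate 3) were 6.54% against 5.01%. The 71 lost in B10 (without its replicate 2) were 10.7% against 7.24%. Without G7 replicate 2 the 69 lost in G7 were 10.3% against 7.14%, and the 46 lost in both 6.86% against 3.71%. Except where construction shows it, the cause was not tested. With the replicate number as a block, the differences in members with a peak (6, -26 and 32) and in share (-0.0261, -0.0257 and -0.000454) had exact sign-flip p from 0.25, the smallest 3 pairs allow, to 1, and no call changed. Leaving out replicate 1 of all lines and regions with copies were alternatives chosen after seeing the data. Peak lists hold no depth, so a missing peak does not show closed chromatin.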

Other observations

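Receptor genes on chromosome X were outside the rule. Around the 10 annotated there, 1 to 3 peaks were found in each library, with 2, 3 and 2 in WT, 1, 3 and 2 in B10 and 2, 3 and 3 in G7, which overlapped between all lines.

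Members found in a single library were spread unevenly. There were 8, 25 and 24 in the WT libraries, 25, 22 and 15 in B10 and 12, 14 and 10 in G7. For other regions the same counts were 4176, 3022 and 2800 in WT, 7165, 3151 and 2085 in B10 and 2670, 2588 and 1807 in G7. WT replicate 1 thus held the fewest such members of any library and the second most such regions elsewhere. The cause was not tested.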
